A study of Mus musculus with 6 samples.

Results

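A set of 5 genes of the angiopoietin and Tie system were followed here in 2 sorted cell populations of the neonatal mouse limb. They are the receptor genes Tek and Tie1, the ligand genes Angpt1 and Angpt2, and Ptprb, which encodes the receptor phosphatase VE-PTP. Members were the genes, fixed by name, that had at least 1 probe set annotated with that gene alone, and all 5 were found among 18193 genes measured. Where a gene had several probe sets, the one with the highest mean over the 6 arrays was used, and the other 4 member probe sets are given beside it.

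RNA came from skeletal tissue of fore and hind limbs of mice at postnatal day 3, with the limbs of a litter pooled. The Tie2-negative population (titled CD45-Ter119-Itgav-Tie2-) lacked the leukocyte antigen CD45, the erythroid antigen Ter119, integrin alpha V and Tie2. The Tie2-positive population (titled CD45-Ter119-ItgavlowTie2+) lacked CD45 and Ter119, was low for integrin alpha V and carried Tie2. Each was measured on 3 Affymetrix Mouse 430 2.0 arrays, with no treatment. The genotype is labelled wild type, a protocol speaks of GFP-labelled animals, and no strain is named. Ter119 stands in the titles but not among the antibodies that the protocol lists. No label says if the 3 samples per population stem from different litters, so each p-value here reflects only how far these samples scattered, and that scatter could be technical.

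Tie2, the product of Tek, is a receptor tyrosine kinase of endothelial cells that is also found on some blood stem cells and monocytes. Angiopoietin 1, made mainly by perivascular and other supporting cells and by megakaryocytes and some blood progenitors, activates Tie2 and stabilises vessels. Angiopoietin 2, released by endothelial cells, acts on the same receptor as a weak or context-dependent agonist. Tie1 is a related receptor that forms complexes with Tie2 and modulates its signal, and VE-PTP removes phosphate from Tie2 and from the VE-cadherin complex.

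Promoter sequences are shown for Tek and Tie1, the 2 of the 5 members for which the RefSeq source held a promoter. They are the 250 bases before the RefSeq gene start (GRCm38.p6), read 5′ to 3′ on the gene's own strand. Capitals mark GGAA, the core of sites bound by ETS transcription factors, or TTCC, the same letters on the other strand. Tek lies on the plus strand at chr4:94739039-94739288 and Tie1 on the minus strand at chr4:118489850-118490099.
Tek: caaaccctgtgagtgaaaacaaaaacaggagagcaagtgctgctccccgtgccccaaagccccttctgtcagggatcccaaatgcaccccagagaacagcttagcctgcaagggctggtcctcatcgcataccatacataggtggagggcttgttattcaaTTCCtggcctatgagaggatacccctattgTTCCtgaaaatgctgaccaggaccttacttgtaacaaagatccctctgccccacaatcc
Tie1: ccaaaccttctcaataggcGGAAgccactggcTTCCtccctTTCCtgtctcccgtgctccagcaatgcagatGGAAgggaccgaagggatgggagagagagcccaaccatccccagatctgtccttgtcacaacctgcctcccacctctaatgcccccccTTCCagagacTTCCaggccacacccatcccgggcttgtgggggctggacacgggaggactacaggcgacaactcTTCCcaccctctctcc
The Tie1 window held 7 GGAA letters on either strand, and 3.8% of 32851 promoter windows of this length held at least as many. The Tek window held 2, a number reached or passed by 76.8% of windows, and 93.4% of windows held at least 1. The longer letters AGGAAG occurred once in the Tie1 window, on the minus strand and overlapping a core match, and in 29.5% of all windows. The E-box letters CANNTG (their own reverse complement) occurred 2 times in the Tek and 1 time in the Tie1 window, against 66.2% of windows with any. The site letters of GATA factors (AGATAA, both strands) were in neither window and in 10.0% of all windows. Those of forkhead factors (TGTTTAC, both strands) were in neither window and in 3.2%. A match describes letters only, and no binding was measured here.

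The Tie2-positive arrays differed from one another more than the Tie2-negative arrays. Correlations over all genes ran from 0.898 to 0.980 among the former and from 0.969 to 0.983 among the latter. Neutrophil transcripts set Tie2-positive replicates 2 and 3 apart: the median level of 10 neutrophil genes was 11.27 and 13.27 there, 5.88 in replicate 1 and 6.24, 7.84 and 8.50 in Tie2-negative replicates 1, 2 and 3. Each tested member is therefore also given without replicate 1, and without replicates 2 and 3. Endothelial markers followed the gate: of 12 endothelial genes, 7 passed the test as higher in the Tie2-positive population, 0 as lower, and in 12 the populations did not overlap. Over all genes the shares were 4.86% as higher, 2.53% as lower and 39.1% without overlap. The summed endothelial level, on the log2 scale, ran from 12.67 to 15.28 in the Tie2-positive and from 10.43 to 10.99 in the Tie2-negative arrays. The difference between 3′ and 5′ control probe sets, which tracks RNA length, was 1.60 ± 0.19 log2 units in the Tie2-positive arrays (SD, n = 3). In the Tie2-negative arrays it was 1.91 ± 0.09 (SD, n = 3). The exact permutation p (two-sided) was 0.1, which is as low as this design of 3 against 3 can go.

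Of the 4 members other than the gate gene, Tie1 and Ptprb passed limma's test as higher in the Tie2-positive population and Angpt1 and Angpt2 did not pass. The test was limma over all 18193 genes with Benjamini-Hochberg adjustment, and a gene was called at an adjusted p under 0.05. That rule called 7.39% of all genes, 4.86% as higher and 2.53% as lower. The 3 values of one population lay wholly above those of the other in 3 of these 4 members, against 39.1% of all genes. The median change was 3.27 over the 4 members and -0.11 over all genes. All levels below are log2 values after quantile normalization, and all changes are Tie2-positive minus Tie2-negative on that scale. The deposited values carry no detection calls, so whether a low level lay above background was not analysed.

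**Figure D1:**
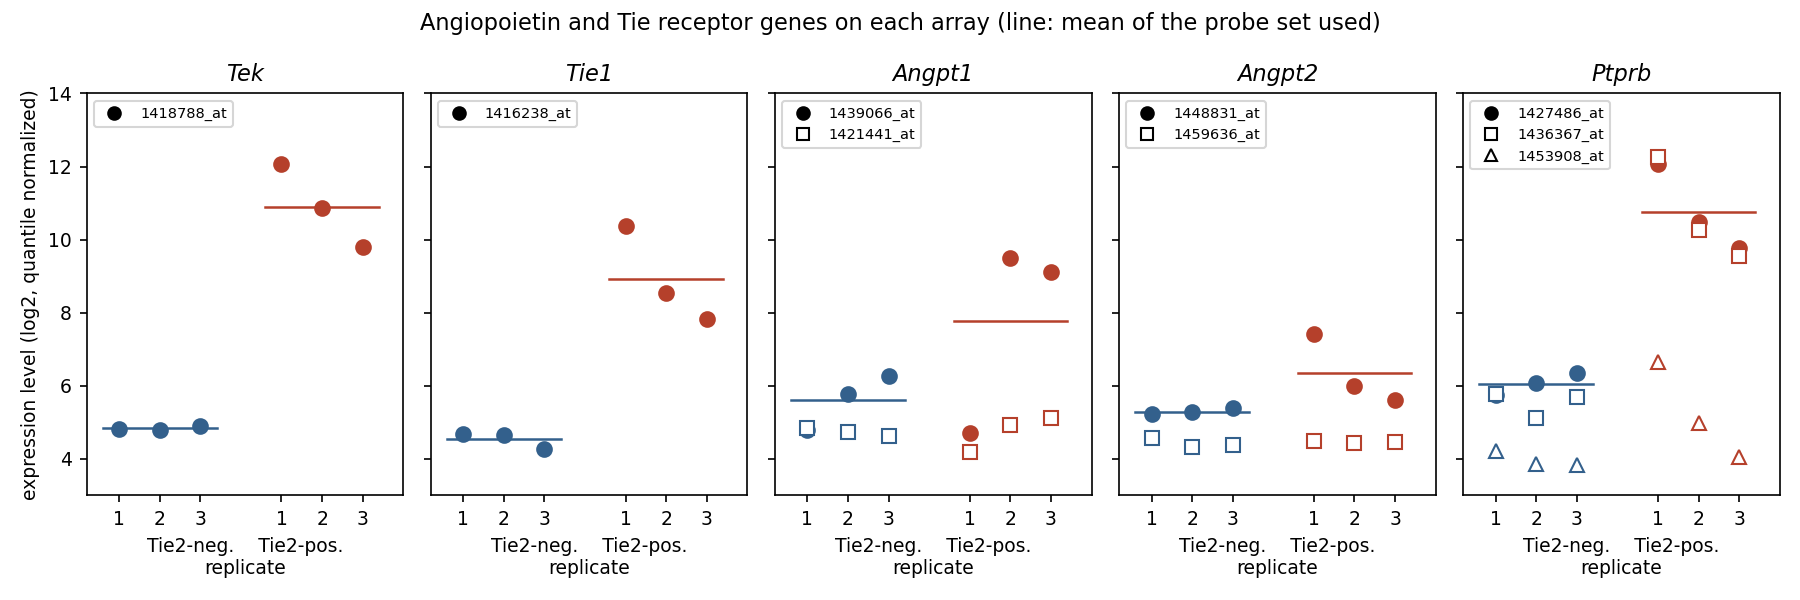
Level (log2) of the 5 member genes on each of the 6 arrays. Filled circles are the probe set used, open symbols the other probe sets of the gene, and lines the mean of 3 arrays. Tek, Tie1 and Ptprb are separated between the populations by gaps of 3.13 or more, whereas Angpt1 is high in Tie2-positive replicates 2 and 3 only.

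Tek, the gene of the sorted antigen, measured 4.81, 4.79 and 4.90 in Tie2-negative replicates 1, 2 and 3, and 12.06, 10.86 and 9.80 in Tie2-positive replicates 1, 2 and 3. The populations were separated by 4.90 between their nearest arrays. Its mean difference was 6.07 ± 0.53 (SE, n = 3 per population). Because Tie2 defined the gate, this checks the labels and is not a finding. Its Tie2-positive values spanned 2.25 while the Tie2-negative values spanned 0.11, so the 3 Tie2-positive samples were not equally rich in the gate transcript. In bulk RNA, fewer cells of a type and less RNA per cell cannot be told apart.

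Tie1, the partner receptor that was not used for sorting, followed Tek. Its single probe set (1416238_at) measured 4.69, 4.64 and 4.28 in Tie2-negative replicates 1, 2 and 3. In Tie2-positive replicates 1, 2 and 3 it measured 10.38, 8.54 and 7.82. The lowest Tie2-positive array thus lay 3.13 above the highest Tie2-negative one, and replicate 1 was the highest of all. The rise of Tie1 was 4.38 ± 0.61 (SE, 3 arrays each), with an adjusted p of 0.0146 in limma. Dropping Tie2-positive replicate 1 gave 3.64 (adjusted p = 0.000967), as against 5.84 with replicates 2 and 3 left out (adjusted p = 0.000101). That last fit holds 1 Tie2-positive array, so its p, here and for the genes below, rests on the spread of the Tie2-negative arrays alone. Tie1 did not pass when Tie2-negative replicate 1, 2 or 3 was left out (adjusted p = 0.0770, 0.0736 and 0.0576), where the rise was 4.45, 4.43 and 4.24.

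Ptprb, whose product VE-PTP restrains Tie2, moved in parallel with both receptors. The probe set used (1427486_at) measured 5.74, 6.06 and 6.35 in Tie2-negative replicates 1, 2 and 3, and 12.06, 10.48 and 9.76 in Tie2-positive replicates 1, 2 and 3. Here too no array of one population overlapped the other, with a gap of 3.41. The rise of Ptprb was 4.71 ± 0.57 (SE, 3 arrays each), with an adjusted p of 0.0116 in limma. Dropping Tie2-positive replicate 1 gave 4.07 (adjusted p = 0.000969), as against 6.01 with replicates 2 and 3 left out (adjusted p = 0.000142). It did not pass without Tie2-negative replicate 1 or 2 (adjusted p = 0.0665 and 0.0668), fits in which limma called 0 of all genes while 4012 and 3980 had an unadjusted p under 0.05.

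The other Ptprb probe sets had the same sign at different sizes. Probe set 1436367_at measured 5.79, 5.10 and 5.70 in the Tie2-negative and 12.26, 10.26 and 9.55 in the Tie2-positive replicates, a change of 5.16 ± 0.65 (SE; limma adjusted p = 0.0128 over all probe sets). Probe set 1453908_at measured 4.20, 3.87 and 3.83 against 6.65, 4.99 and 4.04, where a change of 1.26 ± 0.58 (SE) missed the threshold (limma adjusted p = 0.230 over all probe sets). In that dimmer probe set Tie2-positive replicate 3 lay within the Tie2-negative range, and replicate 1 was again the highest.

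Angpt1, the activating ligand, did not follow its receptor. The probe set used (1439066_at) measured 4.80, 5.77 and 6.26 in Tie2-negative replicates 1, 2 and 3. In the Tie2-positive replicates 1, 2 and 3 it measured 4.72, 9.49 and 9.11. Replicate 1, which held the most Tek, thus held the least Angpt1 of the 6 arrays, and the populations overlapped. The change of 2.16 ± 1.23 (SE, n = 3 per population) did not pass (limma adjusted p = 0.284), and its 95% interval ran from -0.76 to 5.09. An exact two-sided permutation test over the arrays gave p = 0.4 for Angpt1 and p = 0.1 for each of Tie1, Angpt2 and Ptprb.

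A single array decided the Angpt1 result. Without Tie2-positive replicate 1 the change was 3.69 ± 0.42 (SE) and passed (limma adjusted p = 0.00291), in a fit that called 8.22% of all genes as higher. With replicates 2 and 3 left out the sign turned to -0.89 (adjusted p = 0.296), in a fit that assumes the lone Tie2-positive array to vary like the other population. The second probe set (1421441_at) was flat: it measured 4.85, 4.73 and 4.63 against 4.19, 4.94 and 5.11, a change of 0.01 with a 95% interval from -0.56 to 0.58. In both probe sets Tie2-positive replicate 1 was the lowest array.

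Among the Tie2-positive arrays, the medians of the megakaryocyte, neutrophil, blood stem and progenitor, and early B cell lists were lowest in replicate 1, as was Angpt1. Those of the macrophage and erythroid lists were not. The median of 8 megakaryocyte genes was 6.74, 9.65 and 8.63 in Tie2-positive replicates 1, 2 and 3. On the Tie2-negative arrays it stayed within 5.93 to 6.02. Their summed level ran from 10.27 to 13.37 in the Tie2-positive and from 9.51 to 9.59 in the Tie2-negative arrays. Of the 8, 2 passed as higher and 0 as lower, against 4.86% and 2.53% of all genes. Genes of blood stem and progenitor cells went both ways. Their median over 10 genes was lowest in Tie2-positive replicate 1 (7.55, 8.71 and 8.24 in replicates 1, 2 and 3, against 6.34, 6.85 and 7.49 in the Tie2-negative ones). Their summed level was highest there (13.35, 13.01 and 12.89, against 10.26 to 11.21). Of these genes 4 passed as higher and 0 as lower, against 4.86% and 2.53% of all genes. Of the 4, Cd34, Mecom and Procr, named after their values were seen, peaked in replicate 1. The endothelial list also peaked there, and Angpt1 was lowest there. Cd34 measured 12.62, 10.92 and 10.62 there and in replicates 2 and 3. The other, Gata2, was lowest in replicate 1 among the Tie2-positive arrays. So were Meis1, Slamf1, Kit and Hlf, which were not called. Of the remaining uncalled genes, Flt3 measured 7.18 in both replicates 1 and 2 and more in replicate 3, and Mycn was highest in replicate 1. These uncalled genes were also named after their values were seen. Summed neutrophil levels ran from 9.28 to 16.55 in the Tie2-positive and from 9.80 to 12.30 in the Tie2-negative arrays, with 0 of 10 genes called, also at an unadjusted p under 0.05. No marker was at 0, since an array value always carries background. The part of these cells in the Angpt1 values was not tested.

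Ptprc, the gene of the CD45 antigen that both gates excluded, was also lowest in Tie2-positive replicate 1 and was chosen after its values were seen. It measured 4.87, 9.95 and 11.23 in Tie2-positive replicates 1, 2 and 3, and 9.52, 10.41 and 9.42 in Tie2-negative replicates 1, 2 and 3. Its level was thus low in Tie2-positive replicate 1 alone.

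Pericytes are a classical source of angiopoietin 1. Of 10 pericyte and smooth muscle genes limma called 0, with 4 at an unadjusted p under 0.05, all higher, against 13.0% of all genes. The median of the 10 genes was 6.80, 6.58 and 7.02 in Tie2-positive replicates 1, 2 and 3, above the Tie2-negative range of 5.82 to 6.33. Their summed level ran from 11.25 to 11.41 against 9.71 to 10.36. Of 8 skeletal genes 0 were called, also at an unadjusted p under 0.05. Of 9 genes of marrow stromal cells 3 passed as higher and 0 as lower, against 4.86% and 2.53% of all genes. The list median of 7.22, 5.95 and 5.40 in Tie2-positive replicates 1, 2 and 3 had its peak where Angpt1 was lowest. Of 9 macrophage genes 2 passed as higher, 0 as lower and 7 did not pass, against 4.86% of all genes as higher and 2.53% as lower. The 2 were Mrc1 and Lyve1, both highest in Tie2-positive replicate 1, where the endothelial list also peaked. Over the 9 genes the median change was 0.41. The list median of 6.16, 5.25 and 6.35 in Tie2-positive replicates 1, 2 and 3 did not have the order of Angpt1. Likewise the erythroid median of 5.78, 6.98 and 5.22 was lowest in replicate 3. The early B cell median of 5.52, 5.87 and 5.69 was lowest in replicate 1, with 8.07 to 10.54 on the Tie2-negative arrays. In each of these lists 5 of 8 genes passed as lower, against 2.53% of all genes.

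Angpt2, the ligand stored in endothelial cells, was ordered like the receptors but at a smaller scale. The probe set used (1448831_at) measured 5.22, 5.27 and 5.38 in Tie2-negative replicates 1, 2 and 3, and 7.42, 6.00 and 5.62 in Tie2-positive replicates 1, 2 and 3. The populations did not overlap, although only 0.23 separated the nearest arrays and replicate 1 stood well above the others. The change of 1.06 ± 0.44 (SE, n = 3 per population) did not pass (limma adjusted p = 0.172), with a 95% interval from 0.01 to 2.11. Dropping Tie2-positive replicate 1 gave 0.52 (adjusted p = 0.113), as against 2.13 with replicates 2 and 3 left out, where it passed (adjusted p = 0.00153) in a fit whose spread came from the Tie2-negative arrays alone. The second probe set (1459636_at) measured between 4.32 and 4.56 on all 6 arrays, a change of 0.04 with a 95% interval from -0.22 to 0.30.

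Among the Tie2-positive arrays, then, 4 members shared 1 order and Angpt1 had another. Against the Tie2-negative mean, replicate 1 stood higher by 7.22 for Tek, 5.84 for Tie1, 6.01 for Ptprb and 2.13 for Angpt2, and by -0.89 for Angpt1. Replicate 2 stood higher by 6.03, 4.00, 4.43, 0.72 and 3.88 for Tek, Tie1, Ptprb, Angpt2 and Angpt1. Replicate 3 stood higher by 4.97, 3.29, 3.71, 0.33 and 3.50 in the same order of genes. The endothelial list had the order of the 4: its median lay above the Tie2-negative mean by 4.84, 3.85 and 2.64 in replicates 1, 2 and 3.

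**Figure D2:**
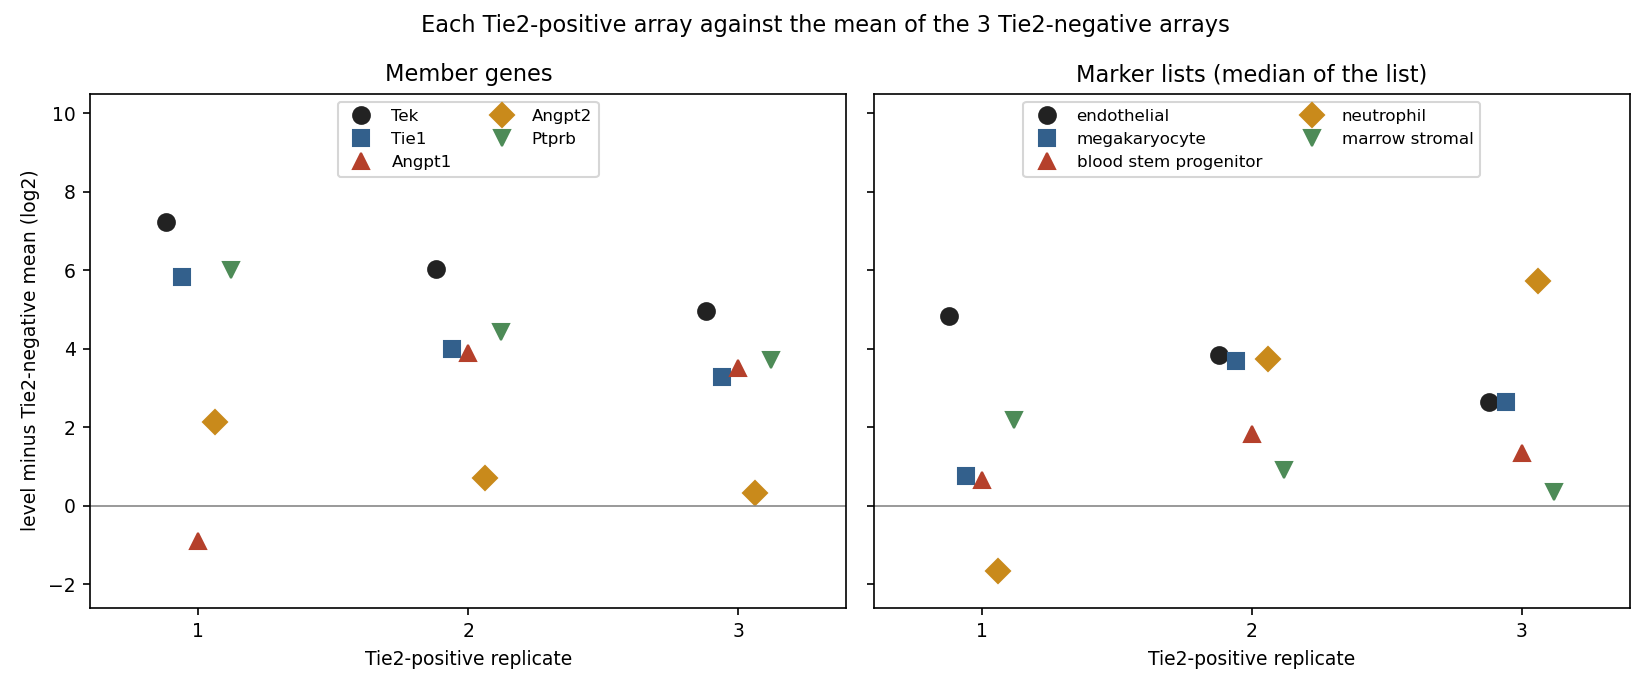
Difference (log2) of each Tie2-positive replicate from the mean of the 3 Tie2-negative arrays, for the member genes on the left and for the medians of 5 marker lists on the right. Points are shifted sideways for legibility. Tek, Tie1, Ptprb and Angpt2 are highest in replicate 1, as is the endothelial list (4.84), while Angpt1 (-0.89) is lowest there, as are the medians of the megakaryocyte (0.77), blood stem and progenitor (0.66) and neutrophil (-1.65) lists. The summed level of the progenitor list, not drawn, is highest there (13.35).

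For each member the 3 genes with the most similar pattern were found, as the smallest root mean square difference over the 6 arrays after each gene was centred on its own mean. The arrays share library, population and marker content, so this describes shape and size only. Nearest to Tek were Tcim (0.25), the adhesion receptor gene Adgrf5 (0.26) and the endothelial surface gene Tm4sf1 (0.29). Nearest to Tie1 were Cd200 (0.18), whose antigen was stained in the same sort, F11r (0.21), which encodes a junctional adhesion molecule, and Esm1 (0.23), the gene of the endothelial proteoglycan endocan. Nearest to Ptprb were the cyclophilin gene Ppic (0.18), Cttnbp2nl (0.21) and the small GTPase gene Rhoj (0.23).

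The genes nearest to Angpt1 were of another kind. Meis1, a homeobox gene of blood stem and progenitor cells that also stands on the list above, differed from it by 0.15. It measured 5.16, 5.93 and 6.20 in Tie2-negative replicates 1, 2 and 3 and 5.03, 9.83 and 9.38 in Tie2-positive replicates 1, 2 and 3, and did not pass the test either. Next came Nkg7, a gene of cytotoxic granules (0.40), and the small GTPase gene Rab32 (0.47). Nearest to Angpt2 were Ccdc102a (0.08), Ttc9 (0.09) and the G protein gene Gna11 (0.10), none of which passed.

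A list of 52 genes of the pathway, written from textbook knowledge, held the members, other ligands, partners and downstream genes. Of the 46 measured, 8 passed as higher, 1 as lower and 37 did not pass, and the others were not analysed here. Without Tek the counts were 7 and 1 of 45, or 15.6% as higher against 4.86% of all genes. The median change was 0.40 over the list and 0.36 over the 41 genes that are not members. Leaving out also the genes of the endothelial marker list, 3 of 38 (7.9%) passed as higher and 1 as lower. With Tek, the number passing as higher became 14 when Tie2-positive replicate 1 was dropped. It became 5 when Tie2-negative replicate 3 was dropped and 0 when replicate 1 or 2 of that population was.

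**Figure D3:**
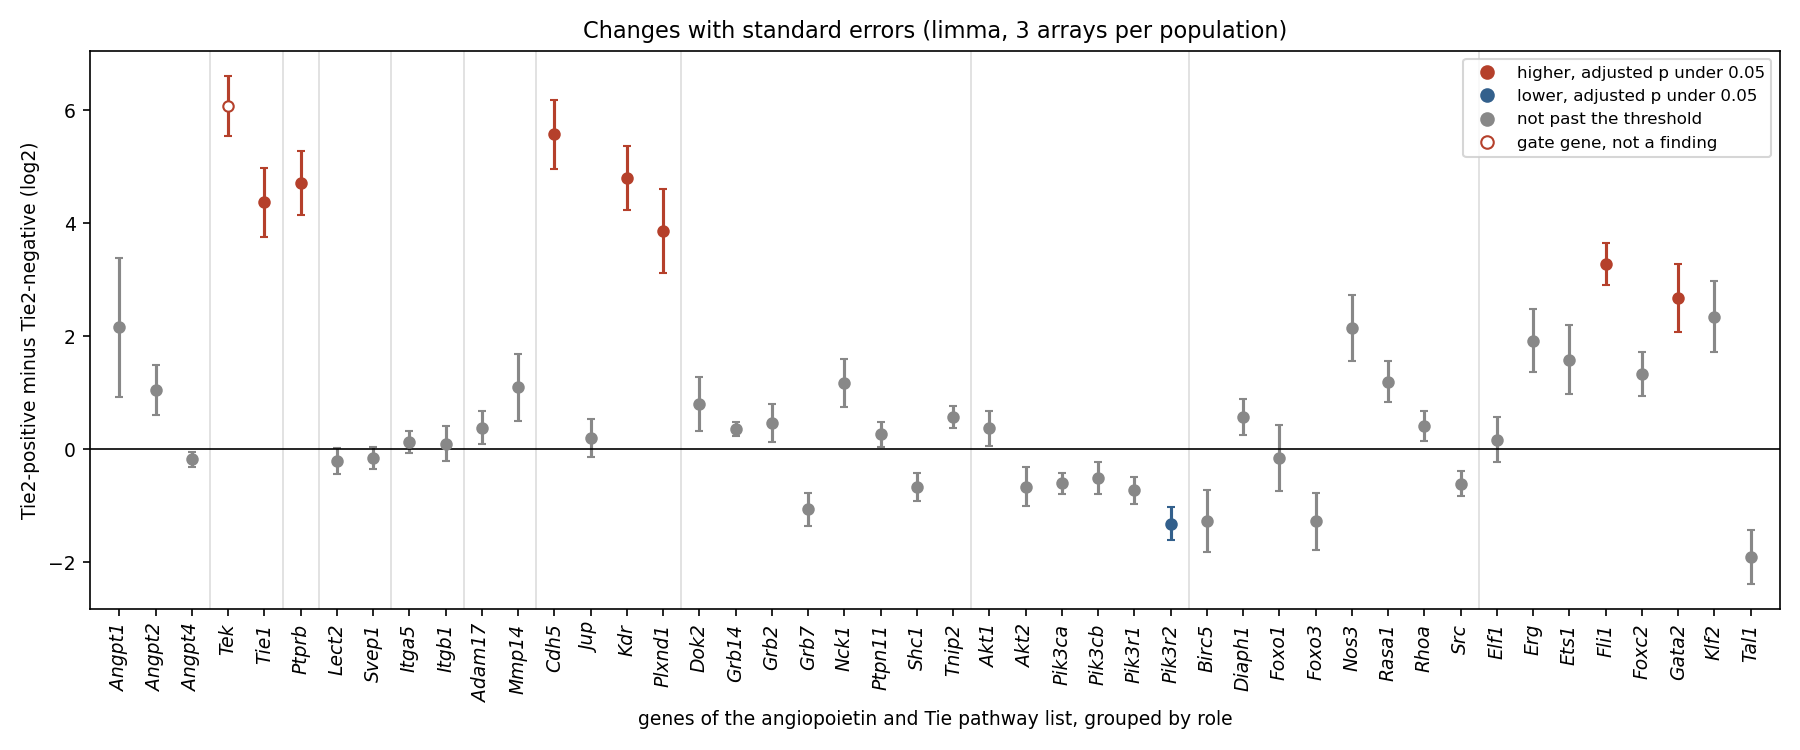
Change (log2, Tie2-positive minus Tie2-negative) with its standard error for the 46 measured genes of the pathway list, grouped by role, 3 arrays per population. Genes past an adjusted p of 0.05 in limma are red (higher) or blue (lower), and the gate gene Tek is an open circle. Calls lie among the receptors, Ptprb, the junction partners and the transcription factors, with Pik3r2 of the kinase arm as the one lower call, while adaptors and downstream genes are grey.

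The junction partners of the pathway were higher together with the receptors. Cdh5, which encodes VE-cadherin, a substrate that VE-PTP keeps unphosphorylated, measured 5.26, 5.08 and 5.11 in Tie2-negative and 11.98, 10.84 and 9.35 in Tie2-positive replicates 1, 2 and 3. It rose by 5.58 ± 0.61 (SE, n = 3 per population). Kdr, the main receptor for vascular endothelial growth factor, rose by 4.80 ± 0.57 (SE), from 6.73, 6.51 and 6.82 to 12.49, 11.82 and 10.15. Plxnd1, a semaphorin receptor, rose by 3.87 ± 0.74 (SE), and Jup, which encodes plakoglobin, had a change of 0.21 and did not pass. Limma adjusted p was 0.0104, 0.0110 and 0.0308 for the 3 risers. Plxnd1 lost its call when Tie2-negative replicate 3 or Tie2-positive replicate 2 was left out, and all 3 lost theirs without Tie2-negative replicate 1 or 2.

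Transcription factors known at endothelial or blood promoters gave 2 further calls of 8, both higher, against 4.86% of all genes as higher and 2.53% as lower. At an unadjusted p under 0.05 in limma, 6 of the 8 were higher and 1 lower, against 13.0% and 15.6% of all genes. Fli1, an ETS factor, measured 6.10, 6.67 and 6.03 in Tie2-negative and 10.12, 9.66 and 8.86 in Tie2-positive replicates 1, 2 and 3. Its rise was 3.28 ± 0.37 (SE), with an adjusted p of 0.0105 in limma. Fli1 was not called without Tie2-negative replicate 1 or 2 (limma adjusted p = 0.0650 and 0.0607) or with the replicate block (0.0521). The related ETS genes Erg (1.93 ± 0.55, SE), Ets1 (1.59 ± 0.61, SE) and Elf1 (0.17 ± 0.39, SE) did not pass. Gata2 rose by 2.68 ± 0.60 (SE; adjusted p = 0.0453), and among the Tie2-positive arrays it was lowest in replicate 1, with 9.62 against 11.68 and 11.68. Gata2 was not called when any one Tie2-negative array, Tie2-positive replicate 2 or Tie2-positive replicate 3 was left out, or with its probe sets averaged. Tal1, a blood and endothelial factor, was lower by -1.90 ± 0.47 (SE) and did not pass (adjusted p = 0.0593).

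Below the receptors few genes passed the test, although the populations did not overlap in 4 of 6 kinase arm genes, all lower, in 5 of 8 adaptors (3 higher, 2 lower) and in 5 of 8 downstream genes (2 higher, 3 lower). Over all genes that share was 39.1%. Pik3r2, a regulatory subunit of phosphoinositide 3-kinase, measured 7.81, 8.60 and 8.62 in Tie2-negative and 6.71, 7.08 and 7.30 in Tie2-positive replicates 1, 2 and 3. It fell by 1.31 ± 0.30 (SE; limma adjusted p = 0.0483) on the log2 scale, close to the threshold. It did not pass with the values as deposited, with arrays centred on their medians, over all probe sets, or without any one array. The other 5 measured genes of this kinase arm did not pass. Of 22 adaptors, downstream genes, integrin partners, other Tie1 ligands and shedding proteases, limma called 0, with 5 higher and 4 lower at an unadjusted p under 0.05. Of all genes 28.6% had such a p, 13.0% as higher and 15.6% as lower. Nos3, the endothelial nitric oxide synthase, had a change of 2.15 ± 0.59 (SE; adjusted p = 0.0734), from 6.48, 6.10 and 6.16 to 9.80, 7.98 and 7.40. It was chosen after its values were seen. The genes with the highest mean of each role were Ptpn11 (0.27, a phosphatase bound by active Tie2), Rhoa (0.41, a small GTPase), Itgb1 (0.10, an integrin chain), Svep1 (-0.16, a matrix protein that binds Tie1) and Mmp14 (1.10, a membrane protease), where the values are changes that did not pass. Foxo1, the transcription factor that drives Angpt2 when Tie2 is silent, had a change of -0.15 ± 0.59 (SE).

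Close relatives of the members gave no further call. The third ligand gene, Angpt4, measured between 5.12 and 5.54 on all arrays, a change of -0.18 ± 0.13 (SE). Of 4 measured angiopoietin-like genes, limma called 0, with 1 at an unadjusted p under 0.05. That gene was Angptl4, a lipase inhibitor, which measured 7.73, 8.10 and 8.61 on the Tie2-negative arrays and 10.82, 9.98 and 9.21 on Tie2-positive arrays 1, 2 and 3. The change of 1.85 ± 0.45 (SE) lay just outside the threshold (limma adjusted p = 0.0552). Of the phosphatases related to VE-PTP, Ptprj had a change of -0.42 ± 0.41 (SE) and Ptpro of 0.04 ± 0.21 (SE), and neither passed, also at an unadjusted p under 0.05. Other relatives were not analysed here.

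Across 17 other settings Tie1 passed in 13 and Ptprb in 14, always as higher. Angpt1 passed in 2 of 17, with array weights and without Tie2-positive replicate 1, and had the opposite sign in 1. Angpt2 kept its sign in all 16 settings that gave it a value and passed in 1, the fit with a single Tie2-positive array.

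**Figure D4:**
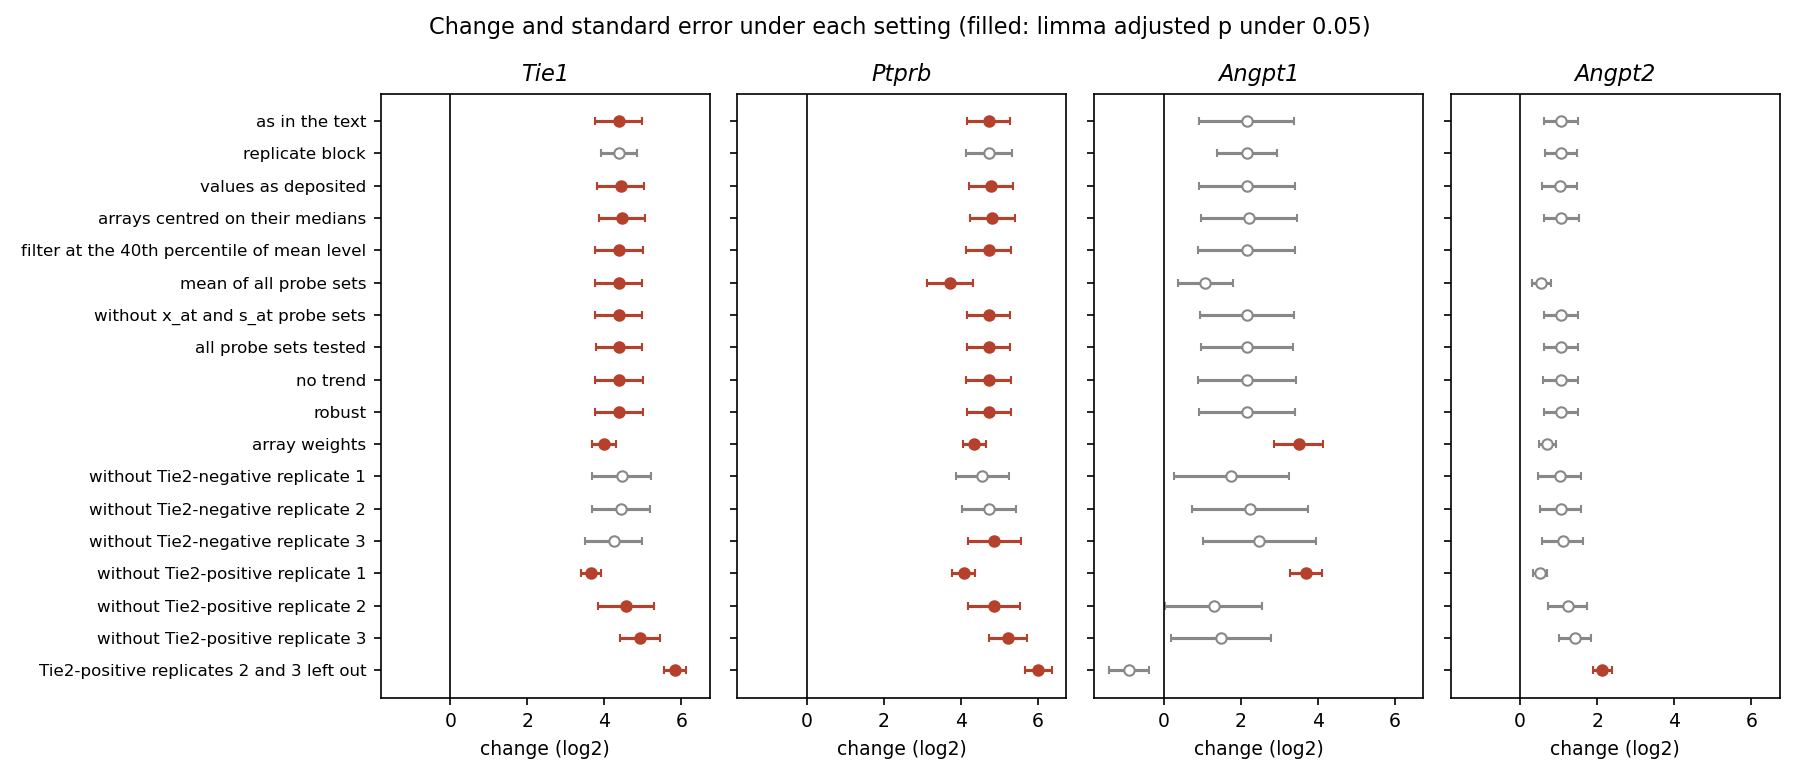
Change (log2) of 4 member genes with its standard error, as given in the text and under each other setting. Filled red points passed limma's adjusted p of 0.05. Tie1 and Ptprb stay between 3.64 and 6.01, while Angpt1 runs from -0.89 to 3.69, with both ends set by which Tie2-positive arrays were used.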

How the data were processed

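Per the labels' protocols, RNA was amplified in a pair of rounds, hybridised to Affymetrix Mouse 430 2.0 arrays and scanned with GCOS 1.1.1. Deposited were log2 values for 45101 probe sets on each array. The authors' summarisation and normalization are not given in the sources used here, and the log2 scale was inferred from its range (2.56 to 14.78). No columns were left unmapped and no arrays were identical (0 pairs). After quantile normalization, 64 controls were left out, 34945 probe sets with 1 gene symbol were kept (932 had several, 9160 none) and each gene took its brightest probe set. Limma 3.58.1 in R 4.3.3 (lmFit, eBayes with a trend, two-sided, no covariates) compared 3 with 3 arrays. Precision is limited by having 3 arrays a side. The procedure was also run on simulated data in which both populations had the spread of the Tie2-negative arrays. That setting leaves out the wider Tie2-positive spread, so it cannot show how the procedure performs on these arrays.

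The members and gene lists were chosen with earlier results of these data known. The text names every member, every gene of the pathway and relatives lists that passed, the brightest gene of roles with none, and the 3 most similar genes per member (among genes whose higher population mean exceeded 6.55). Jup, Erg, Ets1, Elf1, Tal1, Foxo1, Nos3, Angpt4, Angptl4, Ptprj, Ptpro and Ptprc fall outside this rule and were chosen after their values were seen. So were Cd34, Mecom, Procr, Slamf1, Kit, Hlf, Flt3, Mycn, Abcc9, Acta2, Mrc1 and Lyve1. Promoters came from RefSeq (GRCm38.p6), which held 2 of the 5 members. The arrays name no build. Deviations from the population means correlated at 0.14, 0.005 and 0.186 for same-numbered samples, and at -0.162 to 0.055 for the others. No label says that a number marks a shared litter or day, so the main fit did not treat the numbers as pairs. The alternatives were the replicate block, other normalizations, probe set choices, a filter, variance models, array weights and leaving out arrays.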

Additional observations from a re-analysis of the deposited data

How the results depend on the processing

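Tie1, Ptprb, Tek and Angpt2 kept their direction in every setting run, and Angpt1 in all but 1. With the replicate block limma called 0 of all genes as higher and 0 as lower (5080 at an unadjusted p under 0.05, smallest adjusted p 0.0521), hence 0 and 0 pathway genes and 0 relatives; the changes of Tie1 (4.38, adjusted p = 0.0521) and Ptprb (4.71, adjusted p = 0.0542) did not pass, and the cause was not tested. In their deviations from the population means, Tie2-positive replicates 1 and 3 correlated best with the same-numbered Tie2-negative sample (0.14 and 0.186). Tie2-positive replicate 2 correlated best with Tie2-negative replicate 3 (0.055). Array weights gave Angpt1 a change of 3.51 (adjusted p = 0.00919) and called 2177 genes as higher and 2462 as lower, 16 and 5 of them in the pathway list and 2 relatives as higher. When Tie2-positive replicates 2 and 3 were both dropped, the change of Angpt1 was -0.89, of Angpt2 2.13 and of Tek 7.22; 1995 genes were higher and 1642 lower, 17 and 4 in the pathway list, with 2 relatives higher and 1 lower. All probe sets tested gave 1525 higher and 721 lower, of 45037 rather than 18193 tests. Pathway genes called as lower numbered 0 with values as deposited, with arrays centred on their medians and with all probe sets, and 2 with the filter and without the trend. Relatives called as higher numbered 2, in place of Ptprb alone, with values as deposited, centred arrays and the filter, which left out Angpt2. Leaving out single arrays gave changes of 3.64 to 4.92 for Tie1, 4.07 to 5.22 for Ptprb and 1.31 to 3.69 for Angpt1. It gave 0 to 1496 genes as higher, 0 to 652 as lower, 0 to 14 pathway genes as higher, 0 to 1 as lower and 0 to 2 relatives as higher. Centring the arrays on their medians moved the median change of all genes from -0.11 to -0.08. Depth has no meaning for arrays, and low levels carry an unknown background.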
